A study of Homo sapiens with 12 samples.

Results

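The data described here are the RNA levels of 10 ligands and receptors of the VEGF, angiopoietin and PDGF systems, VEGFA, VEGFB, VEGFC, PGF, FLT1, ANGPT1, ANGPT2, PDGFA, PDGFC and PDGFD, chosen by name from the 28901 named genes measured. RNA-seq libraries came from ASC52telo hTERT adipocytes, human adipose-derived mesenchymal stem cells immortalized with telomerase and differentiated for 14 days. The cells carried a lentiviral scramble shRNA or a linc-ADAIN shRNA (KD) against a human adipose long intergenic non-coding RNA. They were harvested untreated or following exposure to 100 ng/mL of LPS, the bacterial endotoxin, for 4 h. Each of the 4 groups had 3 libraries. All groups were sorted for the vector's ZsGreen marker, expanded, and exposed to insulin, dexamethasone, isobutylmethylxanthine and rosiglitazone during differentiation, and insulin and dexamethasone stayed in the medium to the end, so the scramble libraries are not from untreated adipocytes. A single cell line was used, and nothing in the labels says that the 3 libraries of a group came from separate cultures. The paper's figure legends describe its RNA-seq of KD against scramble as a single experiment in triplicate. The p-values therefore measure the spread between these libraries, which may be technical, and not the spread between independent experiments. The paper's methods list a single hairpin sequence for each shRNA. Effects of the knockdown, of the hairpin and of the sorted population therefore cannot be told apart. The knocked-down transcript's own level was not analysed here, and group names below follow the labels. A change with KD below is a difference between these groups.

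Adipose tissue grows and shrinks with its capillary bed, and adipocytes and their stromal neighbours secrete factors that act on that bed. The VEGF ligands act on endothelial cells through the tyrosine kinase receptors FLT1, KDR and FLT4, with the neuropilins NRP1 and NRP2 as co-receptors. ANGPT1 activates the endothelial receptor TEK (TIE2) and stabilizes vessels, and ANGPT2 can oppose it. PDGF ligands act on mesenchymal cells through PDGFRA and PDGFRB, and drive the growth of preadipocytes and the recruitment of pericytes to vessels.

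Libraries held 28.4 to 53.8 M (1e6) estimated counts on named genes. Levels are given as CPM, the counts scaled to a library size of 1e6, after TMM scaling over the 12 libraries, and as CPM per kilobase of the longest protein-coding transcript (CPM per kb) where different genes are set side by side. In bulk RNA, fewer cells of a type and less RNA per cell cannot be told apart.

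VEGFA was the most abundant of the 10 genes in every group on the per-length scale. In scramble adipocytes it stood at 132 ± 15.4 CPM per kb (SD, n = 3), followed by VEGFB, a ligand of FLT1, at 22.3 ± 2.64 CPM per kb. ANGPT1 came next at 11.7 ± 2.09 CPM per kb, and VEGFC, the main lymphatic growth factor, was at 11.3 ± 0.736 CPM per kb, a difference within their spread. PDGFD followed at 8.03 ± 1.22 CPM per kb. PDGFC at 4.12 ± 0.269 and PDGFA at 4.06 ± 0.645 CPM per kb did not differ beyond their spread, and PGF, the placental growth factor that binds FLT1, was at 1.96 ± 0.189 CPM per kb. FLT1 at 0.0207 and ANGPT2 at 0.0135 CPM per kb were at the edge of detection. In KD adipocytes PDGFD stood above VEGFC, at 14.6 ± 1.45 against 11.6 ± 1.41 CPM per kb without LPS, and its 3 libraries (13.5, 14.0 and 16.2 CPM per kb) were all above the highest VEGFC library (12.6 CPM per kb). These levels rest on the transcript length used for each gene, and the reads may come from shorter isoforms.

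VEGFA, PDGFD and ANGPT1 were the members that passed an adjusted p of 0.05 in at least 1 comparison of groups. FLT1 and ANGPT2 had a mean under 10 counts wherever they were tested, which left them little room to pass. In KD against scramble without LPS, 2 of the 10 tested passed by edgeR's quasi-likelihood test, VEGFA lower and PDGFD higher (27.2% of all genes). At a 2-fold threshold 0 of them passed, against 7.77% of all genes. In KD against scramble with LPS, 3 of 9 tested passed (26.9% of all genes), VEGFA lower and PDGFD and ANGPT1 higher, and PDGFD alone also passed the 2-fold threshold (8.48% of all genes). ANGPT2 was under 10 counts in total there and was not tested. LPS in scramble gave 1 of 10, VEGFA lower (14.3% of all genes), and 0 at 2-fold (2.68% of all genes). LPS in KD gave 3 of 10, VEGFA lower and PDGFD and ANGPT1 higher (11.3% of all genes), and 0 at 2-fold (2.25% of all genes). For the difference between the KD effects with and without LPS, edgeR's interaction test on all 12 libraries passed 0 of 10 (1.28% of all genes), 0 of the 10 had an unadjusted p under 0.05, and DESeq2 passed 0. The median log2 difference of the members was 0.03, 0.12, -0.09 and 0.06 in the 4 comparisons of groups, beside 0.02, 0.03, 0.02 and 0.01 over all genes tested. Apart from LPS in KD, the counts at 0.05 were within 1 gene of what the share over all genes would give. The count for LPS in KD was 1, VEGFA, without KD replicate 1, KD replicate 2 or KD with LPS replicate 3 and under scaling by library size only, 2 at a mean of at least 10 counts (VEGFA and ANGPT1) and in the 12-library fit (VEGFA and PGF), and 4 with DESeq2, where PGF joined. These comparisons share libraries, each group entering 2 of them.

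**Figure D1:**
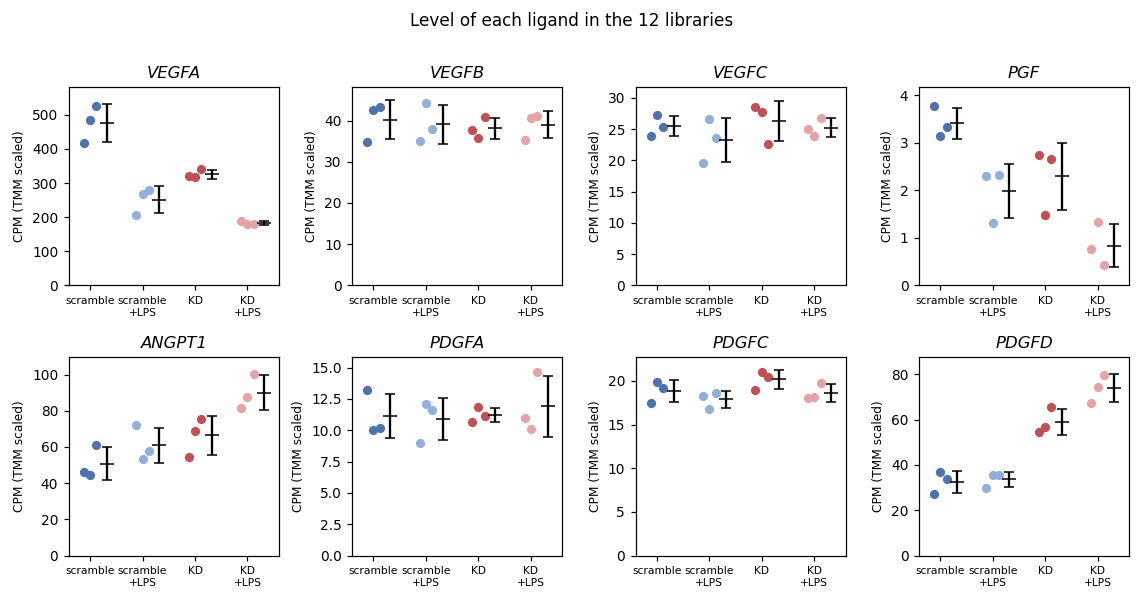
Level of the 8 detected ligands in each library (CPM after TMM scaling, linear axis from 0). Points are single libraries, and the bar beside them is the mean ± SD of 3 libraries. VEGFA lies at 417 to 526 CPM in scramble and at 179 to 189 CPM in KD with LPS, PDGFD is at or above 54.5 CPM in all 6 KD libraries and at or below 36.9 CPM in all 6 scramble libraries, and the ranges of VEGFB, VEGFC and PDGFA overlap between all groups.

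VEGFA, the principal angiogenic ligand, fell with KD and with LPS. The gene lies on chromosome 6 (chr6:43770184-43786487, plus strand, GRCh38), and another annotated gene overlaps its exons on the opposite strand. The strand setting of the counting is not given in the sources used here, so reads of such pairs may be shared. In scramble the 3 libraries held 417, 485 and 526 CPM, and after LPS 205, 268 and 279 CPM. In KD they held 319, 318 and 341 CPM, and after LPS 189, 179 and 181 CPM. Every KD library was below every scramble library of the same treatment, and every LPS library was below every library without LPS of the same shRNA. The log2 fold change of VEGFA with KD was -0.54 (SE 0.090, edgeR adjusted p = 0.00081), from 476 ± 55.5 to 326 ± 13.1 CPM (SD, n = 3). With LPS the KD difference was -0.45 on the log2 scale (SE 0.10, edgeR adjusted p = 0.0046), from 251 ± 39.7 to 183 ± 5.42 CPM. LPS lowered VEGFA by a log2 fold change of -0.91 in scramble (SE 0.12, edgeR adjusted p = 0.00035) and -0.83 in KD (SE 0.070, edgeR adjusted p = 1.5e-06). The KD difference with LPS minus that without was 0.09 (95% interval -0.21 to 0.40, edgeR adjusted p = 0.91).

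PDGFD, a PDGF that is secreted as an inactive dimer and signals mainly through PDGFRB, was higher in KD. It lies on chromosome 11 (chr11:103907189-104164379, minus strand), with DDI1 overlapping its exons on the opposite strand. Scramble libraries held 27.2, 36.9 and 33.6 CPM, and 29.8, 35.5 and 35.6 CPM with LPS. KD libraries held 54.5, 56.8 and 65.6 CPM, and 67.4, 74.2 and 79.8 CPM with LPS, so that the lowest KD library was above the highest scramble library with either treatment. The rise with KD was 0.86 on the log2 scale without LPS (SE 0.12, edgeR adjusted p = 0.00019) and 1.13 with LPS (SE 0.10, edgeR adjusted p = 2.2e-06), the latter a 2.19-fold difference. LPS left PDGFD in scramble at a log2 difference of 0.06 (95% interval -0.21 to 0.32, edgeR adjusted p = 0.81). In KD the log2 difference with LPS was 0.32 (SE 0.099), and its edgeR adjusted p of 0.049 lay just inside the threshold. That call was lost without KD replicate 1 (adjusted p = 0.20), KD replicate 2 (0.14), KD with LPS replicate 2 (0.11) or KD with LPS replicate 3 (0.21), under scaling by library size only (0.11), at a mean of at least 10 counts (0.053) and in the 12-library fit (0.08). The KD difference with LPS minus that without was 0.28 (95% interval -0.07 to 0.62, edgeR adjusted p = 0.57).

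Promoter windows of 300 bases, 250 before and 50 from the RefSeq start of the gene onward (GRCh38.p14), were found for 6 of the 10 genes, VEGFB, VEGFC, PGF, FLT1, PDGFA and PDGFD. They were searched on both strands for the hypoxia response core (ACGTG or GCGTG), the GC box (GGGCGG), the TATA box (TATAAA) and the NF-kB consensus. The windows of PDGFD (chr11:104164098-104164397, minus strand, 67.3% GC) and PDGFA (chr7:520177-520476, minus strand, 71.7% GC) are shown because PDGFD was the ligand that rose with KD and PDGFA a PDGF ligand whose groups overlapped. Capitals mark the matches on either strand, and runs of capitals hold adjoining or overlapping matches.
PDGFD: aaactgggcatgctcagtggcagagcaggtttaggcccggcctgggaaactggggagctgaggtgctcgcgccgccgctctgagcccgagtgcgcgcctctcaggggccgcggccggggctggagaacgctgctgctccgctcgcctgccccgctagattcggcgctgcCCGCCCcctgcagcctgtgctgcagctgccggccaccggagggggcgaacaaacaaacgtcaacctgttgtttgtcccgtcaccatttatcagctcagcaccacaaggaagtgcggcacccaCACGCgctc
PDGFA: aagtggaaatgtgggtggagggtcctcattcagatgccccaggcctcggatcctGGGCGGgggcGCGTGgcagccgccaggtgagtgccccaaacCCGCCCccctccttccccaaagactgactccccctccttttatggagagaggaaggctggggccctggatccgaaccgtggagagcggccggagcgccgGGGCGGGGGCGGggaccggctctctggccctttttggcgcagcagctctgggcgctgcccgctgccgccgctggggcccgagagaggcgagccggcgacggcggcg
With the first transcribed base counted as 0, PDGFD had a core match starting at 41 and 1 GC box at -81, and PDGFA a core match at -186 and 4 GC boxes. Each of the 6 windows held 1 core match, a motif found in 48.4% of 35116 promoter windows of this length, and each held at least 1 GC box, found in 45.0%. FLT1 alone among the 6 held a TATA box, at -31 (11.5% of windows), and an NF-kB consensus, at -92 (5.91% of windows). A match is a description of letters, and PDGFD and PDGFA both held the core and the GC box.

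ANGPT1, the TEK agonist made by mural and stromal cells, was higher in KD with LPS. The gene is on chromosome 8 (minus strand). Scramble libraries held 46.3, 44.7 and 61.2 CPM, scramble with LPS 71.9, 53.1 and 57.9 CPM, KD 54.7, 69.0 and 75.6 CPM and KD with LPS 81.6, 87.5 and 100.5 CPM. KD with LPS stood above all other libraries, while the other 3 groups overlapped. The KD difference with LPS was 0.56 on the log2 scale (SE 0.12, edgeR adjusted p = 0.0029), from 61.0 ± 9.75 to 89.9 ± 9.64 CPM (SD, n = 3). Without LPS it was 0.39 (SE 0.14) with an edgeR adjusted p of 0.054, and 6 of the 7 other whole-data settings gave 0.014 to 0.05. LPS in KD gave 0.44 (SE 0.12, edgeR adjusted p = 0.025), a call lost without KD replicate 1 (0.12), KD replicate 2 (0.056), KD with LPS replicate 2 (0.058) or KD with LPS replicate 3 (0.14), under scaling by library size only (0.051) and in the 12-library fit (0.05). LPS in scramble gave 0.28 (95% interval -0.02 to 0.58, edgeR adjusted p = 0.22). ANGPT2 was read 0 to 6 times per library, a number of counts too low for a fold.

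PGF was at low levels, and its 4 group comparisons did not pass the test. Scramble libraries held 3.78, 3.14 and 3.33 CPM, scramble with LPS 2.30, 1.32 and 2.32 CPM, KD 2.74, 1.49 and 2.67 CPM, and KD with LPS 0.764, 1.33 and 0.422 CPM, from 12 to 199 counts per library. LPS and no-LPS libraries did not overlap for either shRNA, and KD and scramble did not overlap without LPS. The log2 differences were -0.57 for KD without LPS (edgeR adjusted p = 0.17), -1.22 for KD with LPS (0.094), -0.76 for LPS in scramble (0.096) and -1.43 for LPS in KD (0.083). Their 95% intervals were wide, from -2.49 to -0.37 for LPS in KD. In the fit to all 12 libraries PGF passed for KD with LPS (log2 -1.21, edgeR adjusted p = 0.033) and for LPS in KD (-1.42, 0.028), and DESeq2 passed it for LPS in KD (-1.43, DESeq2 adjusted p = 0.049). Without KD with LPS replicate 2 PGF passed for KD with LPS (log2 -1.74, edgeR adjusted p = 0.043) and for LPS in KD (-1.93, 0.049), and the counts of members at 2-fold were then 2 and 1. The 12-library fit gave the same counts at 2-fold, and DESeq2 gave 1 for LPS in KD.

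The other VEGF and PDGF ligands had no difference that passed. VEGFB ranged from 34.7 to 44.2 CPM over the 12 libraries, VEGFC from 19.5 to 28.5 CPM, PDGFA from 9.00 to 14.7 CPM and PDGFC, a ligand of PDGFRA that like PDGFD needs cleavage, from 16.8 to 21.0 CPM. The 4 group comparisons bounded the log2 difference of VEGFB between -0.30 and 0.26, of VEGFC between -0.38 and 0.39, of PDGFA between -0.37 and 0.51 and of PDGFC between -0.37 and 0.33 (lowest and highest ends of the 95% intervals). A 2-fold change of any of these 4 ligands in any of the 4 comparisons lies outside its interval. FLT1, the only receptor among the 10 genes, was read 4, 8 and 10 times in scramble, 1, 6 and 3 times in scramble with LPS, 11, 8 and 3 times in KD and 4, 22 and 0 times in KD with LPS. A count of 0 allows up to 3 counts, and no difference in FLT1 was detectable at this depth.

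**Figure D2:**
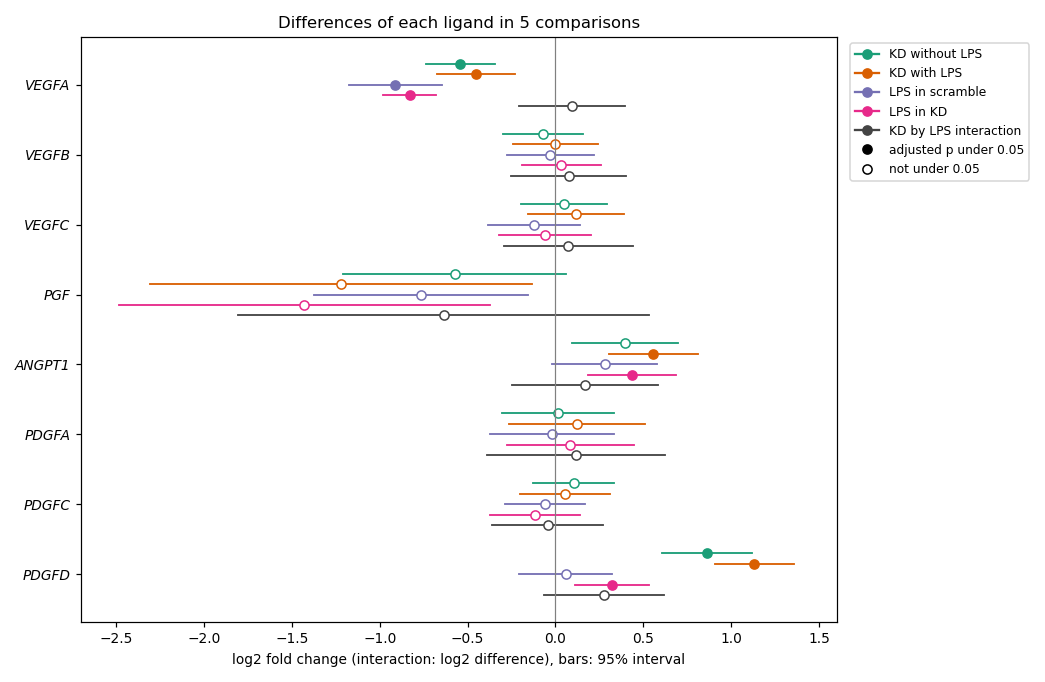
Log2 difference of each of the 8 detected ligands in the 4 comparisons of groups and in the interaction, with 95% intervals derived from edgeR's F test. Filled points have an adjusted p under 0.05. VEGFA lies below 0 in the 4 comparisons of groups, from -0.91 to -0.45, PDGFD reaches 1.13 for KD with LPS, and the PGF intervals are the widest.

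The share of VEGFA in its ligand family differed between all 4 groups, and that of PDGFD between all but scramble with and without LPS. VEGFA made up 78.2% to 79.7% of the summed CPM per kb of VEGFA, VEGFB, VEGFC and PGF in scramble libraries, 66.0% to 70.2% in scramble with LPS, 71.6% to 73.4% in KD and 58.9% to 62.9% in KD with LPS. These 4 ranges did not overlap. Between the same groups VEGFB went from 13.0% to 13.7% of the sum in scramble to 23.3% to 27.0% in KD with LPS, although its CPM stayed within the range given above. Among PDGFA, PDGFC and PDGFD, PDGFD made up 43.7% to 53.2% in scramble, 50.3% to 52.0% in scramble with LPS, 61.1% to 65.5% in KD and 67.1% to 70.6% in KD with LPS. The shares depend on the lengths used: with the mean length of the coding transcripts VEGFA was 87.2% to 88.1% of its family in scramble and 73.1% to 76.3% in KD with LPS.

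**Figure D3:**
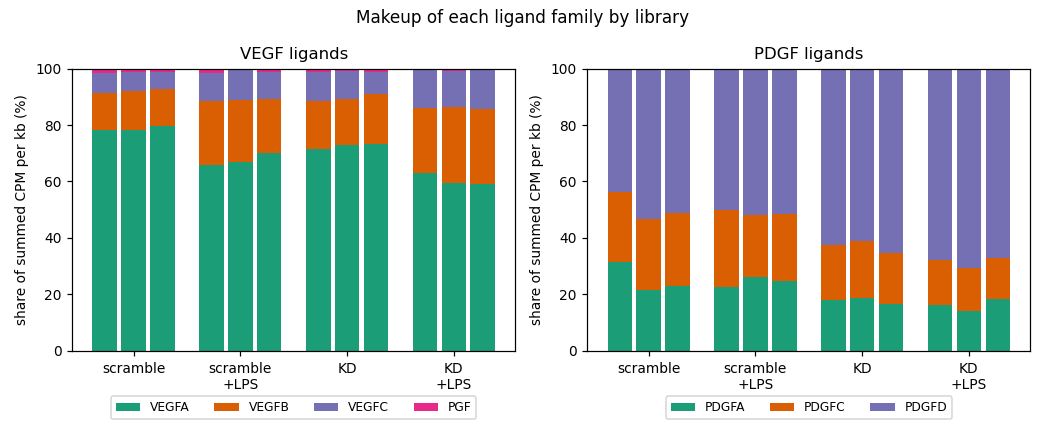
Share of the summed CPM per kb that each ligand takes in its family, 1 bar per library, for the VEGF ligands (left) and the PDGF ligands (right), in percent. VEGFA takes 78.2% to 79.7% in scramble and 58.9% to 62.9% in KD with LPS, and PDGFD takes 43.7% to 53.2% and 67.1% to 70.6%.

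On the receptor side, KDR, FLT4, TIE1 and FLT1 were near absent in scramble, TEK was low and the mesenchymal receptors were abundant. In scramble libraries PDGFRB stood at 171 ± 8.34 CPM per kb, NRP1 at 126 ± 8.91, PDGFRA at 120 ± 6.83 and NRP2 at 27.1 ± 1.72 CPM per kb, while TEK was at 1.86 ± 0.210 CPM per kb. KDR, FLT4 and TIE1, an orphan relative of TEK, had at most 12 counts in any scramble library. Of 13 other ligands and receptors tested, 2 were higher and 6 lower in KD without LPS, 2 higher and 5 lower in KD with LPS, 2 higher and 2 lower with LPS in scramble, and 1 higher and 1 lower with LPS in KD, beside 27.2%, 26.9%, 14.3% and 11.3% of all genes tested. Their median log2 difference was -0.35, -0.15, 0.08 and 0.21 in that order, beside 0.02, 0.03, 0.02 and 0.01 over all genes.

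PDGFRB, the receptor for PDGFD, moved opposite to its ligand with KD. It held 922, 999 and 1010 CPM in scramble, 592, 689 and 667 CPM in scramble with LPS, 543, 483 and 544 CPM in KD and 380, 388 and 339 CPM in KD with LPS. KD lowered it by a log2 fold change of -0.90 without LPS (SE 0.077, edgeR adjusted p = 5.0e-06) and -0.82 with LPS (SE 0.082, edgeR adjusted p = 5.4e-06). LPS lowered it by -0.58 in scramble and -0.50 in KD (edgeR adjusted p = 0.00058 and 0.00043). PDGFRA, the receptor for PDGFA and PDGFC, shares exon sequence with another annotated gene on the same strand. It ran from 716 to 1000 CPM over the 12 libraries, with a log2 rise of 0.26 for KD without LPS (edgeR adjusted p = 0.020) and 0.31 for LPS in scramble (0.034). Both PDGFRA calls were lost when scramble replicate 2 was left out (0.11 and 0.16), the first also without KD replicate 2 (0.066), and the second also without scramble replicate 3 (0.065), scramble with LPS replicate 1 (0.095) or replicate 3 (0.13). PDGFRL, a PDGF receptor-like protein without a kinase domain, went from 1 to 29 counts in the 6 scramble libraries to 46 to 112 counts in the 6 KD libraries (edgeR adjusted p = 0.047 without LPS and 5.1e-05 with LPS). Its call without LPS was lost when any library other than scramble replicate 3 was left out (0.053 to 0.14).

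TEK, the receptor of ANGPT1, fell with KD. It held 9.83, 8.25 and 8.04 CPM in scramble, 5.39, 4.99 and 6.28 CPM in scramble with LPS, 2.79, 2.25 and 2.52 CPM in KD and 3.03, 3.05 and 3.51 CPM in KD with LPS, and no KD library reached a scramble library. The log2 difference was -1.79 without LPS (SE 0.19, edgeR adjusted p = 3.0e-05) and -0.80 with LPS (SE 0.23, edgeR adjusted p = 0.021). The second call was lost without scramble with LPS replicate 3 (0.10), KD with LPS replicate 1 (0.055) or replicate 2 (0.057). LPS lowered TEK in scramble by a log2 fold change of -0.63 (edgeR adjusted p = 0.026), a call lost without scramble replicate 1 (0.11) or 2 (0.071) or scramble with LPS replicate 1 (0.052) or 2 (0.065). In KD the difference with LPS was 0.34 (edgeR adjusted p = 0.54), and the interaction of 0.99 had an edgeR adjusted p of 0.12 and a DESeq2 adjusted p of 0.039. The summed endothelial markers were at 15.7 to 19.5 CPM in scramble and 9.28 to 10.9 CPM in KD, and 10.6 to 11.7 CPM and 4.32 to 7.28 CPM with LPS. ANGPT4, another TEK ligand, fell from 16.0 to 36.4 CPM in scramble to 0.222 to 1.56 CPM in KD (log2 -4.97, edgeR adjusted p = 1e-05), and from 17.3 to 33.4 CPM to 0.281 to 1.92 CPM with LPS (-4.77, 2.3e-06).

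NRP1, the VEGFA co-receptor, fell with KD. Its levels were 785, 684 and 758 CPM in scramble and 553, 604 and 583 CPM in KD, a log2 difference of -0.35 (SE 0.077, edgeR adjusted p = 0.0049). With LPS they were 835, 783 and 849 CPM in scramble and 593, 546 and 587 CPM in KD, a difference of -0.52 (SE 0.070, edgeR adjusted p = 8.5e-05). NRP2, the co-receptor that also binds VEGFC, rose with LPS from 177, 172 and 194 to 425, 472 and 444 CPM in scramble (log2 1.32, SE 0.079, edgeR adjusted p = 9.9e-07) and from 153, 143 and 160 to 411, 383 and 414 CPM in KD (log2 1.40, SE 0.074, edgeR adjusted p = 9.2e-09). Every LPS library was at or above 383 CPM and every library without LPS at or below 194 CPM. Antisense genes overlap exons of both neuropilins. The KD difference of NRP2 without LPS was -0.24 (edgeR adjusted p = 0.040), lost when any of the 3 scramble libraries, KD replicate 1 or KD replicate 2 was left out (0.062 to 0.12) and under scaling by library size only (0.21). KDR, the main signalling receptor of VEGFA, was read 3, 6 and 2 times in scramble with LPS and 120, 94 and 112 times in KD with LPS (log2 4.89, SE 0.60, edgeR adjusted p = 3.4e-05). Without LPS it was read 11, 0 and 2 times in scramble and 34, 57 and 0 times in KD (edgeR adjusted p = 0.16, and 0.048 without KD replicate 3). At 2.02 to 3.94 CPM in KD with LPS, KDR was still low. VEGFD, a ligand of FLT4, fell in KD, from 122 to 131 counts per library to 4 to 32 without LPS, and from 125 to 154 to 0 to 20 with LPS (edgeR adjusted p = 0.0042 in both). PDGFB had 9 counts in 1 scramble library and 0 in the other libraries, and was not tested.

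**Figure D4:**
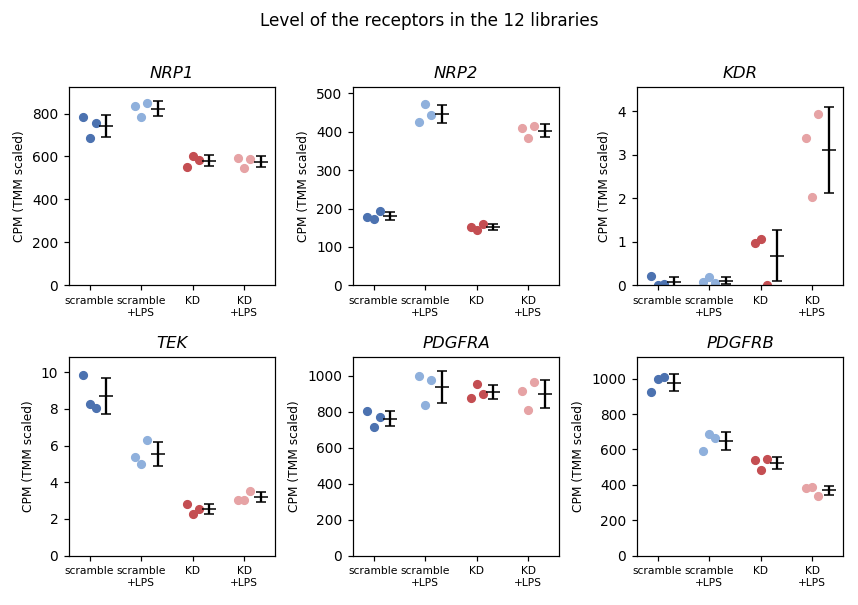
Level of 6 receptors in each library (CPM after TMM scaling, linear axis from 0). Points are single libraries, and the bar beside them is the mean ± SD of 3 libraries. NRP2 is at or above 383 CPM in all LPS libraries, PDGFRB lies at 922 to 1010 CPM in scramble and at 339 to 388 CPM in KD with LPS, and KDR stays at or under 3.94 CPM.

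Several of these ligands act only after cleavage or are held by matrix proteins. Of 14 processing enzymes and antagonists tested, 5 were higher and 5 lower in KD without LPS, 5 higher and 6 lower in KD with LPS, 3 higher and 2 lower with LPS in scramble and 1 higher and 2 lower with LPS in KD, beside 27.2%, 26.9%, 14.3% and 11.3% of all genes tested. Their median log2 difference was 0.03, -0.42, 0.28 and -0.09, beside 0.02, 0.03, 0.02 and 0.01 over all genes. Of the calls with LPS in KD, PLAU was lost without KD replicate 2 (0.052), KD with LPS replicate 2 (0.073) or 3 (0.081). FURIN, a proprotein convertase, was lost without KD replicate 1 (0.12) or 3 (0.057) or KD with LPS replicate 1 (0.13) or 3 (0.13), and in the 12-library fit (0.056). PLAU, urokinase, which can activate PDGFD, fell from 103, 130 and 122 CPM in scramble to 23.2, 25.1 and 24.5 CPM in KD (log2 -2.28, edgeR adjusted p = 6.4e-08), and by -1.74 with LPS (1.9e-06). PLAT, tissue plasminogen activator, which activates PDGFC, was higher in KD, at 12.5, 13.8 and 10.5 CPM in scramble and 20.2, 21.1 and 24.2 CPM in KD (log2 0.84, edgeR adjusted p = 0.00052), and by 1.71 with LPS (5.2e-07). CCBE1, a cofactor of VEGFC cleavage, rose from 31.0 to 43.2 CPM to 61.8 to 79.2 CPM in KD (log2 0.86, edgeR adjusted p = 0.00038) and by 1.34 with LPS (7.6e-08). ADAMTS1, a protease that can bind VEGFA, fell by 0.88 on the log2 scale without LPS and by 1.26 with LPS (edgeR adjusted p = 2.9e-05 and 1.3e-07). THBS1, thrombospondin 1, an inhibitor of angiogenesis, fell with LPS in scramble from between 9626 and 12256 CPM to between 5396 and 6752 CPM (log2 -0.89, edgeR adjusted p = 2.0e-04).

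Hypoxia is a well known inducer of VEGFA, and oxygen sensors and hypoxia-inducible genes were measured beside it. Of 9 oxygen-sensing regulators tested, 3 were higher and 1 lower in KD without LPS, 3 higher and 0 lower in KD with LPS, 3 higher and 1 lower with LPS in scramble, and 3 higher and 0 lower with LPS in KD, with medians of 0.14, 0.27, 0.12 and 0.17 on the log2 scale. The shares and medians of all genes are those given for the receptors. EGLN1, the oxygen sensor that marks HIF proteins for degradation, rose by 0.74 with KD in the LPS libraries, by 0.88 with LPS in scramble and by 1.26 with LPS in KD (edgeR adjusted p = 2.4e-05, 2.9e-05 and 3.5e-07). It also passed as higher in KD without LPS, from a mean of 56.5 to 71.6 CPM. ARNT2, a HIF partner protein, passed as higher in both KD comparisons. Its mean went from 2.88 to 13.2 CPM without LPS and from 0.924 to 11.7 CPM with LPS. EPAS1, or HIF2A, rose with KD by 0.73 without LPS and 0.67 with LPS (edgeR adjusted p = 2.2e-05 and 1.1e-05). Its call for LPS in KD was lost whichever of the 6 libraries was left out (0.057 to 0.19), under scaling by library size only (0.16), with no filter beyond 1 count (0.053), at a mean of at least 10 counts (0.051) and in the 12-library fit (0.068). HIF1A was lower in KD without LPS by a log2 difference of -0.28 (edgeR adjusted p = 0.010), a call lost under scaling by library size only (0.094). Of 12 hypoxia-inducible genes listed, 10 were tested in KD without LPS, of which 2 were higher and 6 lower. With LPS 3 of 10 were higher in KD and 1 lower. LPS gave 0 higher and 4 lower of 11 in scramble, and 2 higher and 0 lower of 10 in KD. The medians were -0.36, 0.22, -0.17 and 0.00, against the 27.2%, 26.9%, 14.3% and 11.3% of all genes that passed and their medians of 0.02, 0.03, 0.02 and 0.01. The BNIP3 call for LPS in KD was lost without KD replicate 3 (0.096) or KD with LPS replicate 1 (0.10) or 3 (0.081), and under scaling by library size only (0.054). PDK1, a kinase that limits pyruvate oxidation, was lower in KD without LPS (log2 -0.64, edgeR adjusted p = 0.0018) and with LPS in scramble (-1.06, 1.0e-04). SLC2A1, the glucose transporter GLUT1, had 72.5, 74.9 and 87.2 CPM in scramble, 41.3, 53.8 and 48.8 CPM in scramble with LPS, 52.0, 51.1 and 57.5 CPM in KD and 69.5, 81.0 and 84.3 CPM in KD with LPS. It thus fell with KD without LPS (log2 -0.54, edgeR adjusted p = 0.00094) and rose with KD with LPS (0.71, 3.0e-04). NDRG1 was higher in KD by 0.80 and 0.89 (edgeR adjusted p = 3.7e-05 and 5.6e-06). Whether oxygen sensing had a part in the differences of VEGFA was not tested.

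Likeness of pattern was described by Pearson's correlation of log2 CPM over the 12 libraries, among 11811 genes averaging 50 or more counts. The genes most like VEGFA were S100A16 (r = 0.981), CIART (0.981) and AATF (0.979). Those most like PDGFD were PLPP5 (0.987), TNFRSF11B (0.983) and NUPR1 (0.981), and those most like ANGPT1 were TMEM106B (0.952), CENPW (0.944) and TMBIM6 (0.942). PGF was most like PSD4 (0.946), and VEGFC most like PHF8 (0.901). Below these came PDGFC with TRIB2 (0.834), VEGFB with SLC27A5 (0.819) and PDGFA with SLC50A1 (0.760). Between members, the correlation was 0.787 for VEGFA with PGF, 0.769 for PDGFD with ANGPT1, and -0.759 for VEGFA with ANGPT1. The 12 libraries fall into 4 groups and share depth and scaling, and the part of differences between groups in these values was not separated.

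The cell type markers moved with the groups. The summed adipocyte markers were 2798 to 3919 CPM in scramble, 3328 to 3768 CPM in scramble with LPS, 558 to 1653 CPM in KD and 467 to 1087 CPM in KD with LPS. Of 8 tested, 5 were lower in KD without LPS and 6 with LPS, and 0 passed in either LPS comparison. Of all genes tested, 27.2% and 26.9% passed for KD without and with LPS, and 14.3% and 11.3% for LPS in scramble and in KD. These shares also apply beside the counts of the other marker lists below. LEP and LPL, markers of mature fat cells, had at most 21 and 82 counts in any library. ADIPOQ, adiponectin, ranged from 142 to 514 CPM among the 3 KD libraries without LPS. Its mean without LPS went from 919 CPM in scramble to 349 CPM in KD, and that of PPARG from 65.2 to 35.6 CPM. The paper reports the opposite direction, with RNA and protein of adipocyte markers, among them adiponectin and PPARG, raised by the knockdown at the same stage of differentiation. The reason for this difference from the paper was not tested. The summed stromal markers were 4104 to 5206 CPM in scramble and 6265 to 7126 CPM in KD, 4167 to 4818 CPM in scramble with LPS and 7475 to 8440 CPM in KD with LPS, with 3 of 7 tested higher and 2 lower in both KD comparisons. That list holds PDGFRA, and its members went both ways with KD without LPS. DCN, the largest part of the sum, went from a mean of 2671 to 4904 CPM, and DPP4 from 113 to 475 CPM. THY1 went from 764 to 148 CPM and ENG from 285 to 111 CPM. Pericyte and smooth muscle markers, a class that also expresses PDGFRB, summed to 322 to 335 CPM in scramble, 250 to 262 CPM in scramble with LPS, 114 to 135 CPM in KD and 105 to 120 CPM in KD with LPS, with 7 and 6 of 9 lower in KD without and with LPS. Endothelial markers summed to 15.7 to 19.5 CPM in scramble, 10.6 to 11.7 CPM in scramble with LPS, 9.28 to 10.9 CPM in KD and 4.32 to 7.28 CPM in KD with LPS. Of 6 tested, 1 was higher and 1 lower in KD without LPS, and 1 was higher and 2 lower in KD with LPS. VWF was lower in KD by a log2 difference of -2.12 without LPS and -2.77 with LPS (edgeR adjusted p = 1.4e-05 and 6.7e-05), while CDH5, CLDN5 and EGFL7 were at or under 3 counts throughout. ROBO4 was the marker that was higher in both. It had 0 to 9 counts per library in scramble and 27 to 54 in KD. With LPS it had 0 in scramble and 13 to 35 in KD. Among macrophage markers, which summed to 54.6 to 60.8 CPM in scramble, 57.0 to 71.8 CPM in scramble with LPS, 34.4 to 41.5 CPM in KD and 29.0 to 35.1 CPM in KD with LPS, AIF1 and TYROBP were at or under 3 counts throughout. Of 5 tested, CD68 passed as lower in both KD comparisons, while CD14 passed as higher in KD with LPS and lower with LPS in scramble. Their median log2 difference was -0.02 for KD without LPS and 0.67 for KD with LPS, beside 0.02 and 0.03 over all genes. The part of adipocyte, stromal, pericyte, endothelial and macrophage markers in the differences of VEGFA, PDGFD, ANGPT1 and their receptors was not tested.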

How the data were processed

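The authors prepared stranded poly(A) RNA-seq libraries, pseudoaligned the reads to human transcripts (GRCh38) with kallisto 0.44.0 and deposited estimated counts summed per gene name, with no scaling for library size or length. The submitters' processing notes also name bcl2fastq 2.19 and DESeq2 1.32.0. The deposited estimated counts were whole numbers. A row without a gene name (0.235% to 0.306% of a library) was left out.

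A fit kept genes whose libraries together held 10 or more counts. In R 4.3.3, edgeR 4.0.16 with TMM scaling and its quasi-likelihood F test compared the groups in 4 fits of 6 libraries, and the interaction on all 12, with Benjamini-Hochberg adjustment over all genes tested. DESeq2 1.42.0, other scalings and filters, a fit on 12 libraries, a block for the replicate number, and leaving out each library were alternatives. No fold is given for genes with a mean under 10 counts. Positions and lengths came from GENCODE release 44, promoters from RefSeq (GRCh38.p14). An SE was taken as the absolute log2 difference divided by the square root of edgeR's F. An interval is at 95%, from that SE and the t distribution, so it carries the same information as the p-value. The steps were tested on simulated counts, with changes larger than most given here put into well-detected genes. Smaller changes, and changes in genes at low counts, were not simulated.

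Named were all 10 members, the tested receptors, up to 3 genes per list and comparison with the smallest adjusted p, and per member the 3 genes most like it. PDGFRL and VEGFD were named after their values were seen. The members and lists were chosen with earlier results of these data known, so they are not independent evidence.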

Additional observations from a re-analysis of the deposited data

Results flagged for a closer look

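Among the genes listed beside the members, 5 passed the edgeR interaction test, in which the log2 difference of KD against scramble with LPS was compared with that without LPS on all 12 libraries. By list, 0 of 13 other ligands and receptors, 2 of 14 processing enzymes and antagonists, 1 of 9 oxygen-sensing regulators and 2 of 11 hypoxia-inducible genes passed. Of all genes tested, 1.28% passed. PLAT had an interaction of 0.88 (SE 0.19, edgeR adjusted p = 0.030), lost in 7 of the 12 fits that leave out a library (highest adjusted p 0.11). THBS1 had 0.73 (SE 0.14, edgeR adjusted p = 0.0094). ARNT2, a HIF partner protein at 0.773 to 1.07 CPM in scramble with LPS and 11.3 to 12.3 CPM in KD with LPS, had 1.48 (SE 0.27, edgeR adjusted p = 0.0094). BNIP3, a mitophagy receptor, had 0.77 (SE 0.14, edgeR adjusted p = 0.0088). SLC2A1 had 1.25 (SE 0.15, edgeR adjusted p = 0.00025).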

How the results depend on the processing

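Over the 40 log2 differences of the 8 detected members, 503 of 560 alternative values kept their direction and their side of the threshold, and 20 of the 40 did so in every alternative. VEGFA kept all 4 group calls and PDGFD both KD calls in every alternative run. The count of members passing for LPS in KD fell from 3 to 1, VEGFA, under scaling by library size only, and to 2 at a mean of at least 10 counts and in the 12-library fit. It was 4 with DESeq2 and with the replicate block, where PGF joined, and ranged from 1 to 3 when a library was left out, with 1 without KD replicate 1, KD replicate 2 or KD with LPS replicate 3. The count for LPS in scramble was 2 with the replicate block, which added PGF (adjusted p = 0.046).

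Deviations of same-numbered libraries had low correlations, from -0.044 to 0.13, and the numbers were not taken as pairs in the main fits. In the LPS comparisons the same-numbered library was the closest for replicates 1 and 2 in scramble and 1 and 3 in KD. In the KD comparisons it was the closest for replicate 2 with LPS only. With the block PGF passed for LPS in KD (log2 -1.51, adjusted p = 0.033), which took the count at 2-fold from 0 to 1, ANGPT1 passed for KD without LPS (0.018) and KDR for LPS in KD (3.2e-05), while NRP2 for KD without LPS (0.06) and EPAS1 for LPS in KD (0.059) no longer did. Scaling by library size only shifted the median of all genes by 0.10 for KD without LPS. Small differences changed sign. VEGFB turned to 0.033 for KD without LPS and -0.018 for LPS in KD under library size only, and for KD with LPS to 0.082 under library size only, 0.0012 with RLE size factors and with DESeq2, and 0.0033 at a mean of at least 10 counts. PDGFRA for KD with LPS was 0.017 under library size only.

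With a library left out, PDGFA ranged from -0.058 to 0.15 for KD without LPS, -0.051 to 0.23 for KD with LPS, -0.098 to 0.12 for LPS in scramble, -0.091 to 0.20 for LPS in KD and -0.058 to 0.22 for the interaction. VEGFB ranged from -0.074 to 0.093 for KD with LPS, -0.12 to 0.044 for LPS in scramble and -0.019 to 0.10 for LPS in KD. VEGFC ranged from -0.016 to 0.15 for KD without LPS and -0.043 to 0.18 for the interaction. PDGFD ranged from -0.053 to 0.16 for LPS in scramble, NRP1 from -0.051 to 0.029 and PDGFRA from -0.076 to 0.052 for LPS in KD. The interaction ranged from -0.032 to 0.18 for VEGFA and -0.087 to 0.0085 for PDGFC. The cause was not tested. Depth limits PGF, FLT1 and ANGPT2.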
